A study of Mus musculus with 6 samples.

Results

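The 6 genes described here, Otx2, Foxd3, Tcf15, Nr6a1, Vrtn and Zfp281, encode regulators of the exit of mouse embryonic stem cells from the naive state. They are 6 of the 51912 gene identifiers in the deposited count table, found by symbol, and all 6 were among the 14889 genes with enough counts to be tested. The set was chosen by function and from the difference between the 24 h and 48 h libraries, in which Vrtn was already known to be among the largest risers. Their fold changes are therefore given as a description, with no test. The cells were R1 mouse embryonic stem cells, an established line, grown in 2iLIF (inhibitors of MEK and GSK3 with the cytokine LIF) and then moved to the serum-free medium N2B27 containing 100 ng/ml of FGF2. The groups were FGF2 for 24 h and FGF2 for 48 h, with 3 libraries each. Medium and FGF2 dose were the same in both groups, so the contrast is one of time in that medium. Cells in 2iLIF, or in N2B27 without FGF2, were not analysed here.

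Naive stem cells correspond to the epiblast before implantation. When the inhibitors are withdrawn, FGF-ERK signalling drives them into a formative state, from which all germ layers and germ cells can be made. Otx2 is a homeodomain protein that directs Pou5f1 (Oct4) to enhancers of the formative state. Foxd3 is a forkhead protein that rewires enhancers during the same transition and later marks neural crest. Tcf15 is a basic helix-loop-helix protein that primes cells for differentiation downstream of FGF and is held back by the Id proteins. Nr6a1, also called germ cell nuclear factor, is an orphan nuclear receptor that represses Pou5f1 once cells differentiate. Zfp281 is a zinc finger protein that acts with the Tet and Ehmt enzymes in the step from naive to primed cells. Vrtn encodes vertnin, a DNA-binding protein known from variation in vertebral number.

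The libraries held between 19574969 and 23133148 estimated counts. The labelled cell type was matched by its defining markers in every library: Pou5f1 lay between 1041 and 1113 CPM (counts per scaled library total), Sox2 between 306.6 and 411.1, and Sall4 between 300.7 and 359.7. Nanog lay between 166.9 and 722.9 CPM and Lin28a between 186.9 and 568.4. The labels do not say whether the 3 libraries of a group came from separate cultures, so p-values measure only the spread between these libraries, which may be technical. The counts of all 6 genes were whole numbers in each library, so no count of theirs shows reads divided with a similar gene.

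On GRCm38, in the GENCODE M21 annotation, all 6 are protein-coding. Otx2 (ENSMUSG00000021848) lies at chr14:48657677-48673819 on the minus strand and Foxd3 (ENSMUSG00000067261), which has 1 exon, at chr4:99656299-99658622 on the plus strand. Tcf15 (ENSMUSG00000068079) lies at chr2:152143561-152149097 and Vrtn (ENSMUSG00000071235) at chr12:84641019-84651455, both on the plus strand. Nr6a1 (ENSMUSG00000063972) spans chr2:38723370-38927688 on the minus strand, and Zfp281 (ENSMUSG00000041483) spans chr1:136624901-136630053 on the plus strand.

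Promoter sequences were taken from RefSeq on GRCm38.p6, the build family named in the submitters' processing notes, and 5 of the 6 genes were matched by symbol, all but Tcf15. The 250 bases before the most upstream RefSeq start are printed for 4 genes, because these windows differ in their content of CG dinucleotides. The Otx2 window lies inside the GENCODE M21 span of Otx2, and the window of Nr6a1, not printed, lies inside that of Nr6a1. For these genes the sequence before the upstream end of the GENCODE span was not examined. Capitals mark CG dinucleotides. Otx2 and Vrtn had the largest fold changes of the set, and Foxd3 and Zfp281 are the other 2 genes for which no printed base lies in an exon of the gene itself.
Otx2 (chr14:48667645-48667894, strand -): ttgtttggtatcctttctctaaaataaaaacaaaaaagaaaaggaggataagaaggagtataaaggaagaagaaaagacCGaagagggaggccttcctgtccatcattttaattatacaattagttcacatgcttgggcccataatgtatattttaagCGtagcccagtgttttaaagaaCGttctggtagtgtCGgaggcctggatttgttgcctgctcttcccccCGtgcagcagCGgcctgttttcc
Vrtn (chr12:84640769-84641018, strand +): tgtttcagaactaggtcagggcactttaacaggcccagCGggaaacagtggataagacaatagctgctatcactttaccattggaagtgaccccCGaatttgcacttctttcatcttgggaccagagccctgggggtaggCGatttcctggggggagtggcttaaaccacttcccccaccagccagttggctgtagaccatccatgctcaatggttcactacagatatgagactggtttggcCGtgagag
Foxd3 (chr4:99656049-99656298, strand +): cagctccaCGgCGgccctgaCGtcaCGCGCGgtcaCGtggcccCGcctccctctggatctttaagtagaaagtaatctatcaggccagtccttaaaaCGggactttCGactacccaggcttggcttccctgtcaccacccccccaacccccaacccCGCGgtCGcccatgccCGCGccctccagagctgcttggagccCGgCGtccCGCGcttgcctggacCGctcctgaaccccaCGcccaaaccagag
Zfp281 (chr1:136624651-136624900, strand +): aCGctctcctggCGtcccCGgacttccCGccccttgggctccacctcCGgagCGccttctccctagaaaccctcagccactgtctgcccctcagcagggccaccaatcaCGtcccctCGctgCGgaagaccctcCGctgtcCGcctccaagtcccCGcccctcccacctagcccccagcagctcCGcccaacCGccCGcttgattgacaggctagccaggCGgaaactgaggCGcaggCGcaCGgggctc

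Across 27026 promoters of this length the median was 6 CG dinucleotides and 52.0% G and C. Foxd3 had 21 CG dinucleotides and 65.6% G and C, and Zfp281 had 19 and 69.6%. Otx2 had 6 CG dinucleotides and 42.0% G and C, and 16.6% of all promoters had less G and C. Vrtn had 4 CG dinucleotides and 51.6%. At its most upstream start Nr6a1 also had 4, with 37.6%, and 8.4% of promoters had less G and C. At the most upstream starts, Foxd3 and Zfp281 thus lay above the median count of CG dinucleotides, Vrtn and Nr6a1 below it. This did not hold for the other RefSeq starts. Those of Vrtn had 10 and 8 CG dinucleotides, that of Nr6a1 had 7, and those of Otx2 had 8, 14 and 9. Counts per gene do not show which start the cells used.

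These windows were searched on both strands for 10 short motifs, which can overlap each other. The OTX motif TAATCC was in none of the 5 windows and in 6.37% of all promoters. The homeodomain core TAATTA was found before the Otx2 start, at positions -141 to -136, and in 4.91% of promoters. An E-box, CANNTG, the class of site read by proteins such as Tcf15, was found before Otx2 (CACATG at -124 to -119), Foxd3 (CACGTG at -217 to -212) and Vrtn (CAGTTG at -67 to -62), and in 66.1% of promoters. The nuclear receptor element AGGTCA was found before Vrtn, at -238 to -233, and in 13.8% of promoters. The other 6 motifs had no match in the 5 windows: TGTTTAC for forkhead proteins (3.06% of promoters), TCAAGGTCA for Nr6a1 (0.366%), GGGTGGG for Zfp281 (15.5%), ATGCAAAT for Pou5f1 (1.62%), CTTTGAT for Lef1 and Tcf7l1 (3.26%) and CCGGAAG for ETS proteins (7.07%). Other RefSeq starts of these genes were also searched. An OTX match stood before the third Otx2 start, at -211 to -206, within an exon of a longer transcript. GGGTGGG stood before the most downstream Otx2 start, at -156 to -150, -150 to -144, -89 to -83 and -71 to -65. It also stood before the most downstream Vrtn start, at -27 to -21. The E-box, AGGTCA and TAATTA had matches before other starts as well. These matches describe letters only, and the deposited data hold no binding measurement.

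All 6 genes were higher at 48 h than at 24 h, by between 1.46-fold for Zfp281 and 39.5-fold for Vrtn. In each of them every 48 h library lay above every 24 h library. Over all tested genes, 66.9% had groups that did not overlap, and 30.9% were called higher at 48 h (quasi-likelihood test of edgeR, adjusted p below 0.05). Since this contrast was used in choosing the genes, nothing is read from their count. CPM are relative to the scaled library total, and log2 fold changes are 48 h over 24 h. In bulk RNA, a higher level in each cell and a larger share of cells with the transcript cannot be told apart.

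**Figure D1:**
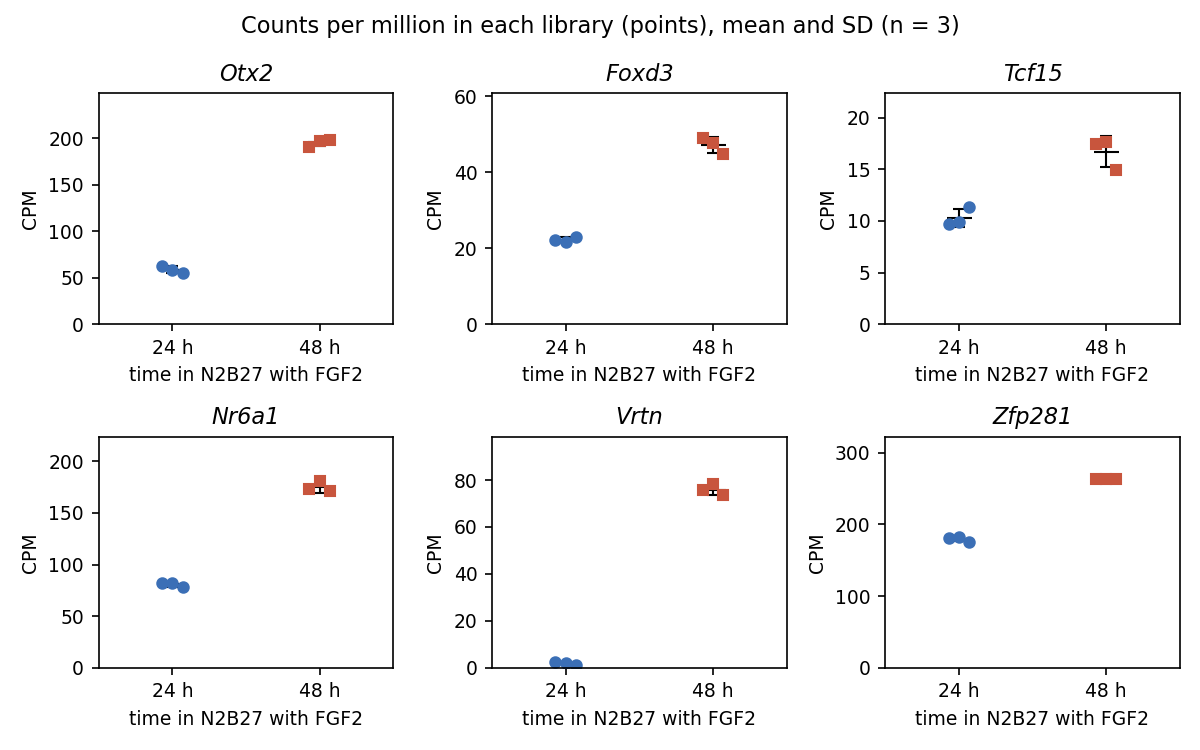
Expression of the 6 genes in CPM (y axis, from 0) at 24 h and 48 h (x axis). Points are single libraries and bars are mean and SD (n = 3). Every 48 h library lies above every 24 h library in each panel, with Vrtn at most at 2.35 CPM at 24 h and at least at 73.7 CPM at 48 h.

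Otx2, the homeodomain factor, was at 62.7, 58.6 and 55.2 CPM in the 24 h libraries and at 191.2, 197.1 and 198.7 CPM in the 48 h libraries. The 48 h values lay close together, and the lowest of them was 3.05 times the highest 24 h value. The log2 fold change was 1.74 (standard error 0.04), which ranked 268 among the 14889 tested genes. Otx2 was therefore already expressed on the first day and rose 3.32-fold by the second. In GENCODE M21, 154 bases of its exons overlap those of Otx2os1 on the opposite strand. A further 1 annotated gene, Gm49154, shares 168 exon bases with Otx2 on the same strand and is absent from the count table. Otx2os1 was given between 1 and 7 counts in a library, against at least 1200 for Otx2.

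Foxd3, the forkhead factor, was at 22.2, 21.7 and 23.1 CPM at 24 h and at 49.02, 47.6 and 45.0 CPM at 48 h. The groups were far apart relative to their spread, with SDs of 0.698 and 2.06 CPM. On the log2 scale the change was 1.08 (standard error 0.05). Its single exon contains Gm23366, a predicted miRNA gene, which had 0 counts in every library. The overlap is 89 bases on the same strand, and the libraries are of messenger RNA. No absence of this miRNA is therefore read from its counts. For a gene with 0 counts, the limit of 3 counts corresponds to between 0.127 and 0.150 CPM, which covers counting error only.

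Tcf15, the basic helix-loop-helix factor, was at 9.71, 9.91 and 11.3 CPM at 24 h and at 17.5, 17.6 and 14.98 CPM at 48 h. Replicate 3 was the highest library at 24 h and the lowest at 48 h, and the gap between the groups was the narrowest of the set in relative terms, at 1.32-fold between the nearest libraries. The log2 fold change was 0.69 (standard error 0.09), with the largest standard error of the 6, from 194 to 385 counts in a library.

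Nr6a1, the orphan nuclear receptor, was at 82.3, 82.1 and 77.9 CPM at 24 h and at 172.9, 181.0 and 170.7 CPM at 48 h. Its log2 fold change of 1.12 (standard error 0.03) was near that of Foxd3. No exon of another annotated gene overlaps its exons. The antisense gene Nr6a1os and the miRNA genes Mir181a-2 and Mir181b-2, which lie within its span on the opposite strand, had 0 counts in every library. As the libraries are of messenger RNA, no absence of these miRNAs is read from this.

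Vrtn, the vertnin gene, rested on 47, 41 and 33 counts in the 24 h libraries and on 1643, 1709 and 1633 counts in the 48 h libraries. These correspond to 2.35, 2.00 and 1.40 CPM at 24 h and to 75.6, 78.1 and 73.7 CPM at 48 h. Every 48 h library was far above every 24 h library. The fold between single libraries ranged from 31.3 to 55.9. The log2 fold change was 5.32 (standard error 0.08), ranking 9 among the 14889 tested genes, of which 10 reached a log2 fold change of at least 5. Within the set, Otx2 followed at 1.74.

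Zfp281, the zinc finger factor, had the smallest fold change of the set. It was at 181.5, 182.1 and 175.7 CPM at 24 h and at 263.1, 263.6 and 263.2 CPM at 48 h. Its log2 fold change was 0.55 (standard error 0.02), and the nearest libraries of the groups differed 1.44-fold. The 48 h libraries spread by 0.108% (coefficient of variation), under the 1.32% that counting alone gives for its counts, so this closeness is narrower than the measurement can resolve. With library size as the only scaling its log2 fold change was 0.49, a shift larger than the replicate spread of 0.028.

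**Figure D2:**
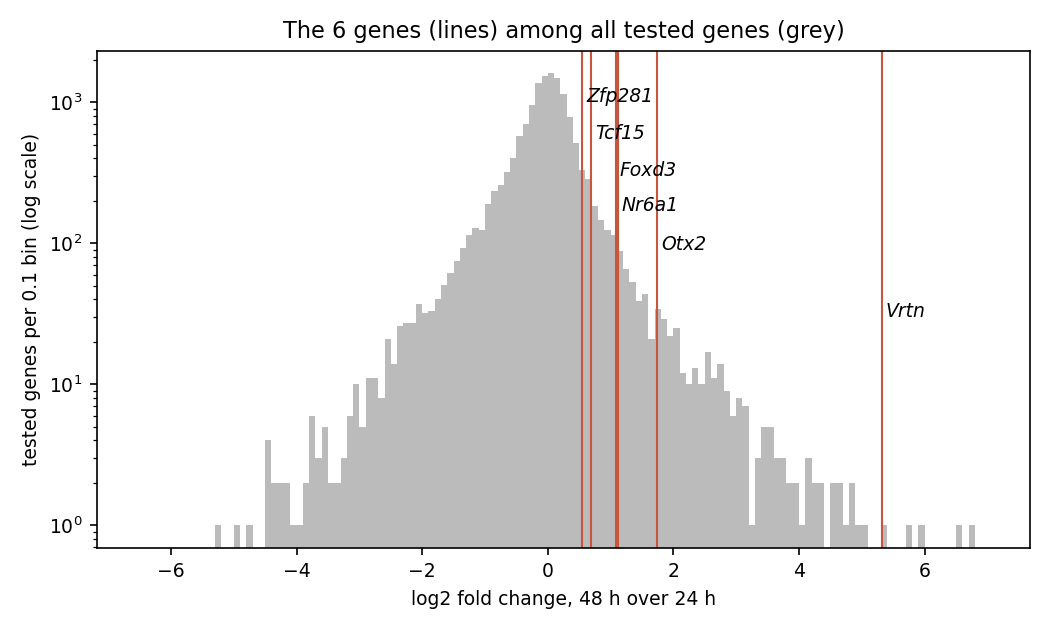
Log2 fold changes, 48 h over 24 h (x axis), of all 14889 tested genes as a histogram (number of genes in bins 0.1 wide, log y axis), with lines for the 6 genes. Foxd3 and Nr6a1 nearly coincide at 1.08 and 1.12, and Vrtn lies far to the right at 5.32.

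To compare the genes with each other, CPM were divided by the length of each gene's merged exons in GENCODE M21, which range from 980 bases for Tcf15 to 10824 for Nr6a1. At 24 h the order of these levels was Zfp281 (36.4 ± 0.710 CPM per kb, SD, n = 3), Otx2 (13.9 ± 0.891), Tcf15 (10.5 ± 0.891), Foxd3 (9.61 ± 0.300), Nr6a1 (7.46 ± 0.233) and Vrtn (0.532 ± 0.134). Libraries of Tcf15 and Foxd3 overlapped, and the other neighbours in this order did not. At 48 h the order was Zfp281 (53.3 ± 0.0575 CPM per kb), Otx2 (46.4 ± 0.935), Vrtn (21.0 ± 0.619), Foxd3 (20.3 ± 0.885), Tcf15 (17.03 ± 1.51) and Nr6a1 (16.2 ± 0.502). Here Vrtn overlapped with Foxd3, and Tcf15 with Nr6a1. These lengths count all annotated isoforms, so the level per kb of Nr6a1, which has 16 exon blocks, is a low estimate if a shorter transcript is used.

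The makeup of the set shifted from 24 h to 48 h. Summed over the 6 genes, the level per length rose from between 77.7 and 79.3 to between 171.2 and 176.9 CPM per kb. The share of Zfp281 in this sum went from between 45.8% and 47.1% to between 30.2% and 31.1%, and that of Otx2 from between 16.8% and 18.7% to between 25.96% and 27.5%. The share of Vrtn went from between 0.499% and 0.822% to between 11.9% and 12.2%. Nr6a1 stayed between 9.16% and 9.68% in every library. Among all tested genes, Vrtn moved from the 16.1 percentile of levels per kb to the 82.8 percentile, and Otx2 from the 75.3 to the 92.3 percentile.

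**Figure D3:**
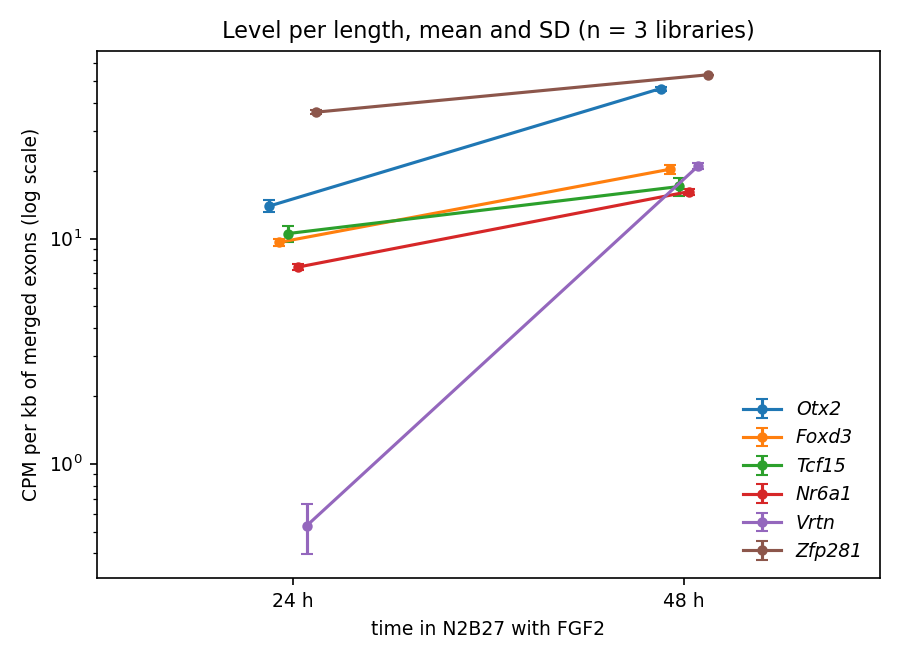
Level of each gene per kb of merged exons (CPM per kb, log y axis) at 24 h and 48 h (x axis), with points for the mean, bars for the SD of 3 libraries and lines joining the means of a gene. Vrtn climbs from 0.532 to 21.0 CPM per kb and meets Foxd3 at 20.3, while Zfp281 stays highest at both times.

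Within a time point the genes deviated together only in part. At 24 h, replicate 3 was the lowest library for Otx2, Nr6a1, Vrtn and Zfp281 and the highest for Foxd3 and Tcf15. The same library was also the lowest for 9 of 14 formative and primed genes and the highest for 9 of 12 naive factors. How often this library was the lowest or highest over all tested genes was not examined. Fits without this library gave log2 fold changes of 1.69 for Otx2, 1.10 for Foxd3, 0.76 for Tcf15, 1.09 for Nr6a1, 5.12 for Vrtn and 0.53 for Zfp281. At 48 h, replicate 2 was the highest library for Tcf15, Nr6a1, Vrtn and Zfp281. Replicate 3 was the lowest at 48 h for Foxd3, Tcf15, Nr6a1 and Vrtn, and replicate 1 for Otx2 and Zfp281. Between replicates, the coefficient of variation of Vrtn at 24 h was 25.2%, against 15.7% from counting. For Otx2 at 24 h it was 6.39%, against 2.83% from counting.

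The genes with the most similar course were sought among 10422 tested genes averaging 5 CPM or more, as those with the smallest root mean square difference in log2 CPM, centred on each gene's mean, over the 6 libraries. For Otx2 these were Trp53bp1 (a difference of 0.026), Cgnl1 (0.038) and Slc16a3 (0.049). For Nr6a1 they were Pak1 (0.013), Nav2 (0.019) and Dnmt3l (0.036), the last a cofactor of the DNA methyltransferases. Foxd3 was followed by Etfbkmt (0.042), Chka (0.043) and Prr36 (0.045), and Tcf15 by Taf13 (0.061), Fam84b (0.071) and Spry4 (0.071), an inhibitor of FGF signalling. For Zfp281 they were Ctbp2 (0.009), a corepressor, Ajuba (0.012) and Slc7a3 (0.014). Vrtn had no gene as close, with Tal2 at 0.191, Zfp608 at 0.320 and the formative ligand gene Fgf5 at 0.354. At 24 h Tal2, Zfp608 and Fgf5 were at 0.238, 0.554 and 2.25 CPM, so they averaged 5 CPM only through their 48 h levels. Their log2 fold changes were 5.98, 4.84 and 4.63, and with so few counts at 24 h their distances to Vrtn are uncertain. Within the set, Foxd3 and Nr6a1 were the most alike, at 0.065, and Vrtn and Zfp281 the least, at 2.37. With 6 libraries in 2 groups, such likeness mostly reflects a like fold change. Ranking by Pearson correlation instead kept 2 of the 18 genes.

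Proteins that bind, hold back or act with the 6 factors were then examined in a list of 16 genes. All were tested, and 8 were higher at 48 h, 6 were lower and 2 were not called, so 87.5% were called where the share over all tested genes was 62.8%. The median log2 fold change was 0.06, against -0.01 for all tested genes. The 4 Id genes and Tet2 changed by more than the 0.55 of Zfp281 in size, and the other partners by less. Pou5f1, the partner of Otx2 and target of Nr6a1, was at 1111 ± 1.99 CPM at 24 h and 1058 ± 15.2 CPM at 48 h (SD, n = 3), lower by a small margin (log2 -0.07, adjusted p = 0.000662).

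The Id genes, whose products sequester the E proteins that Tcf15 needs, did not move as a block. Id3 was at 23.4, 23.6 and 24.7 CPM at 24 h and at 12.1, 12.7 and 12.2 CPM at 48 h (log2 fold change -0.96, adjusted p = 1.41e-09). Id4 was at 5.96, 5.76 and 6.74 CPM and then at 1.24, 0.777 and 0.722 CPM (log2 fold change -2.75, adjusted p = 1.18e-09). Id1 also fell, from 2.16 ± 0.482 to 0.882 ± 0.251 CPM (SD, n = 3, adjusted p = 0.000422). Id2 rose, from 1.24 ± 0.120 CPM, with every library at most at 1.32, to 4.19, 6.12 and 4.60 CPM (log2 fold change 2.00, adjusted p = 9.52e-08). In all 4 genes the groups did not overlap, as in 66.9% of tested genes. Of the E protein genes, which supply the dimer partners of Tcf15, Tcf12 rose by 0.42 and Tcf3 by 0.15, and Tcf4 was at 0.04 and was not called (adjusted p = 0.209).

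The enzymes tied to Zfp281 moved in opposite directions. Tet1, an oxidase of methylated cytosine, was at 1001, 1003 and 996.1 CPM at 24 h and at 1329, 1380 and 1343 CPM at 48 h (log2 fold change 0.43, adjusted p = 5.39e-13). Tet2, the related oxidase, went from 267.1, 262.4 and 268.4 CPM to 137.02, 136.1 and 134.5 CPM (log2 fold change -0.97, adjusted p = 1.12e-15). Ehmt1, a histone H3 lysine methyltransferase, rose by 0.51 on the log2 scale. Among chromatin factors linked to Foxd3, Smarca4 rose by 0.22, Hdac2 had a log2 fold change of -0.31, and Hdac1 was at 0.02 and was not called (adjusted p = 0.408). Ncor1, a corepressor gene linked to Nr6a1, rose by 0.15.

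Close relatives of the 6 factors were mostly at low counts. Of the 10 relatives listed, 3 were tested, and 2 of these were called lower, as were 31.9% of all tested genes. Otx1 had enough counts to be tested only through its 24 h libraries, where it was higher, so the count filter favoured a fall. With at least 10 counts in every library, 2 relatives were tested and 1 was called lower. Otx1 was at 0.801, 0.781 and 1.61 CPM at 24 h and at 0.138, 0.503 and 0.180 CPM at 48 h (log2 fold change -1.96, standard error 0.46, adjusted p = 0.00152), on 3 to 38 counts in a library. Without 48 h replicate 2 the log2 fold change of Otx1 was -2.71 (adjusted p = 0.000784). Zfp148, the paralog of Zfp281, was at 62.3, 59.2 and 62.6 CPM and then at 46.8, 46.3 and 45.7 CPM (log2 fold change -0.41, adjusted p = 6.33e-08). The groups of both genes did not overlap, as in 66.9% of tested genes. The relative of Tcf15 that could be tested, Tcf24, was at 2.56 ± 0.316 and 2.07 ± 0.276 CPM and was not called (adjusted p = 0.142). The other 7, among them Foxd1, Foxd2, Foxd4 and Crx, had at most 19 counts in a library.

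**Figure D4:**
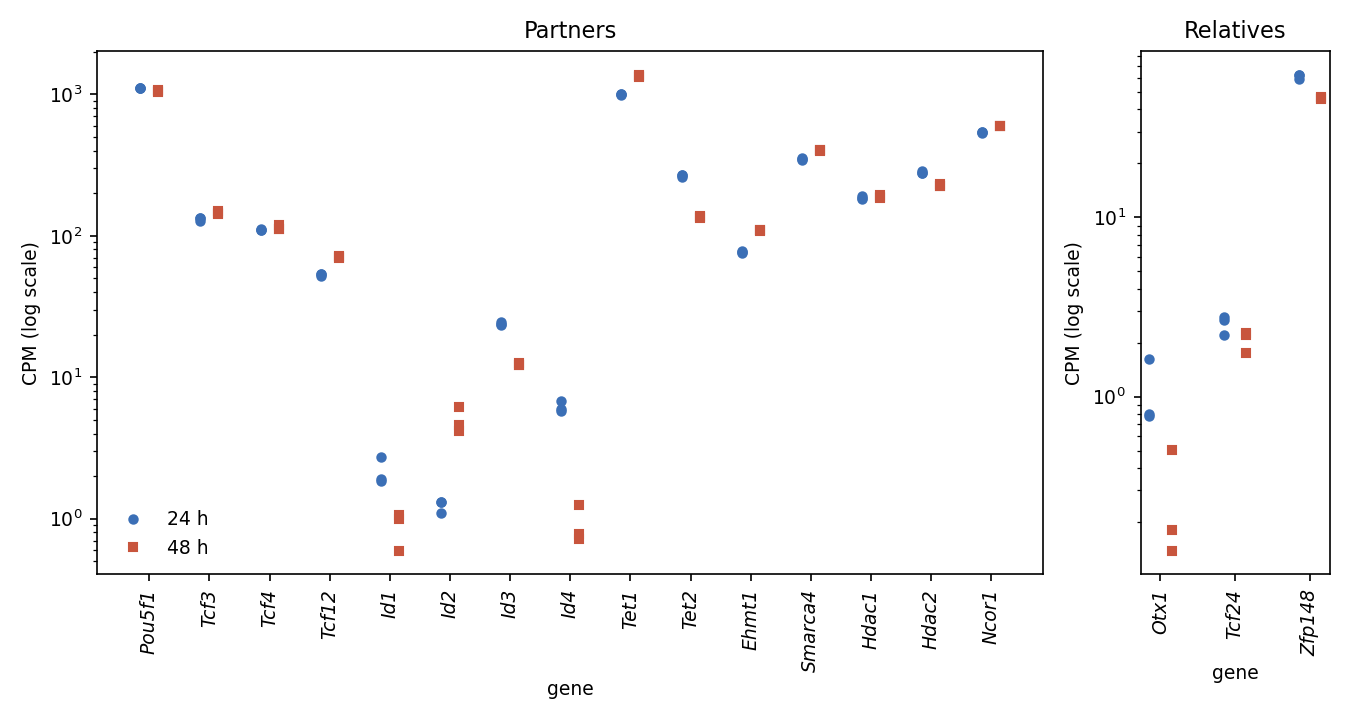
CPM (log y axis) of the partner genes named in the text (left) and tested relatives (right) in each library, with circles for 24 h and squares for 48 h. Id1, Id3, Id4, Tet2, Otx1 and Zfp148 sit lower at 48 h, and Id2, Tet1 and Tcf12 sit higher.

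The 6 factors belong to a wider machinery of exit from the naive state, of which 25 further genes were listed. All 25 were tested, with 16 higher, 4 lower and 5 not called, or 80.0% called, against 62.8% called and 30.9% higher over all tested genes. The median log2 fold change was 0.12. With library size as the only scaling 11 were higher and 5 lower. Fgfr2, an FGF receptor, rose most, by 3.03 on the log2 scale (adjusted p = 3.68e-15). Its level was 4.07 ± 0.0600 CPM at 24 h and 33.3 ± 1.22 CPM at 48 h (SD, n = 3), and its counts were fractional. Tfe3, the transcription factor that is driven out of the nucleus during exit, rose from 77.05, 82.1 and 79.3 CPM to 190.2, 185.9 and 192.02 CPM (log2 fold change 1.25, adjusted p = 1.2e-15). Of the genes of the folliculin complex that controls it, Fnip2 rose by 0.64 on the log2 scale and Fnip1 had a log2 fold change of -0.47, while Flcn itself was at -0.04 and was not called (adjusted p = 0.416). Of the ETS factors downstream of FGF, Etv4 was at -0.34 and Etv5 at 0.08 (adjusted p = 0.0007), and the call of Etv5 was lost with library size as the only scaling (adjusted p = 0.439).

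Beside these, all 14 listed genes of formative and primed cells rose, where 30.9% of all tested genes were called higher. Their median was 2.38 on the log2 scale, above the value of each of the 6 factors but Vrtn. The largest changes were in Fgf5 (4.63), from 2.25 ± 0.523 to 55.1 ± 1.56 CPM, and Grhl2 (4.13), an epithelial transcription factor, from 4.36 ± 0.929 to 75.6 ± 2.01 CPM (SD, n = 3). Of 12 naive factors, 11 fell, where 31.9% of all tested genes were called lower. The median over the 12 was -1.57, and Gbx2 rose from 12.1 ± 0.569 to 20.1 ± 0.758 CPM (log2 fold change 0.74). Tbx3, which fell most, went from 166.8 ± 15.3 to 14.03 ± 0.715 CPM (log2 fold change -3.57). The lists share cells and libraries with the 6 genes, so they are not independent evidence of their direction. Among the list genes named, exons of Pou5f1, Tet2, Id4, Ncor1, Tcf24, Dnmt3l, Lef1, Grhl2, Tbx3, Gbx2, Tcf7l1, Upf1, Six3, Rax, Lhx5, Tfap2a, Gata6, Sox17, Eomes, Dab2 and Gata3 overlap exons annotated on the other strand. Whether counting was by strand is not given in the sources used here, so such reads cannot be told apart.

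**Figure D5:**
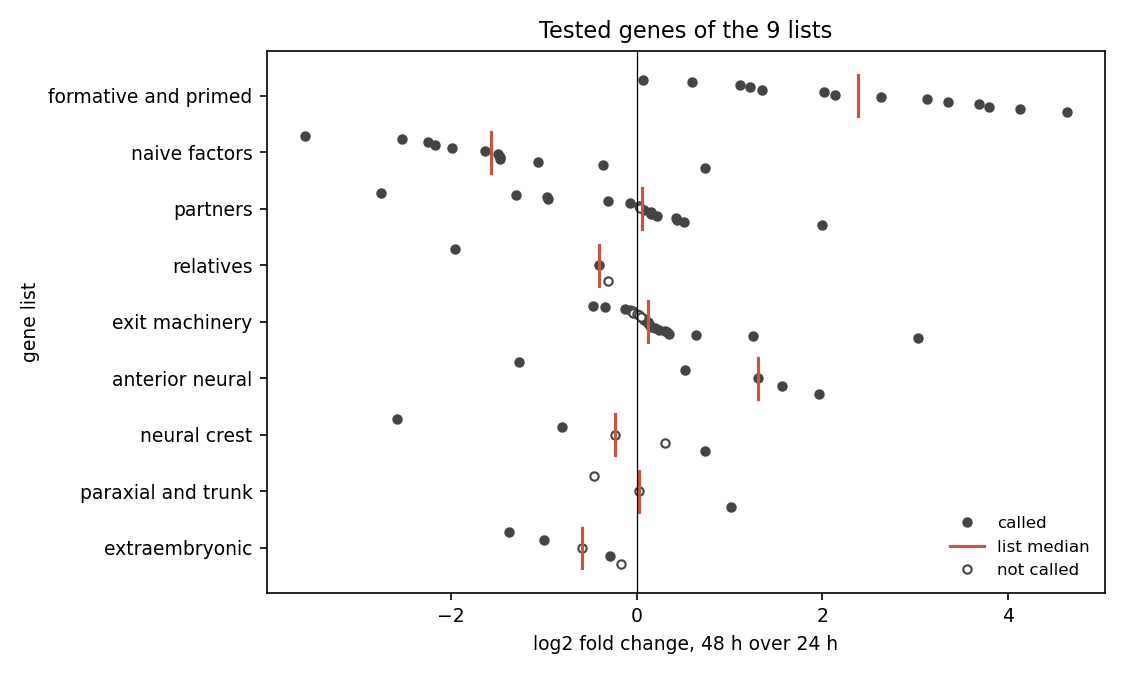
Log2 fold change, 48 h over 24 h (x axis), of the tested genes of each of 9 lists (rows). Filled circles are called genes, open circles are genes not called, and the vertical bar in each row is the list median. The formative and primed list has its median at 2.38 and the naive factors at -1.57, while partners (0.06) and exit machinery (0.12) sit near 0.

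Otx2, Foxd3, Tcf15 and Nr6a1 are also known from later tissues, and markers of those tissues were read in the same libraries. For the anterior neural setting of Otx2, 5 of 11 markers were tested, and 4 of these rose and 1 fell. Over all tested genes, 30.9% were called higher and 31.9% lower. Pax6 rose from 11.9, 12.3 and 10.5 CPM to 34.8, 34.6 and 32.4 CPM (log2 fold change 1.56, adjusted p = 3.25e-12), Sox1 rose by 1.31 and En2 by 0.52, while Dmbx1 fell to 0.868 ± 0.248 CPM. En1 rose by 1.96 but stayed under 1 CPM, and without 24 h replicate 1 its log2 fold change was 2.88 (adjusted p = 0.000331). En1 had enough counts to be tested only through its 48 h libraries, where it was higher, so the count filter favoured a rise. With at least 10 counts in every library, 4 markers were tested, with 3 higher and 1 lower. Six3, Hesx1, Rax, Fezf2, Lhx5 and Wnt1 were at or near 0, with at most 14 counts in a library. The summed level of the 11 markers went from between 37.4 and 37.7 to between 83.0 and 87.5 CPM. Pax6 and Sox1 made up most of this sum, with means of 33.9 and 36.6 CPM at 48 h. Without Sox1 the other 10 markers summed to between 22.6 and 23.2 CPM at 24 h and between 46.9 and 49.9 CPM at 48 h. The part of these markers in the values of Otx2 was not tested.

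For the neural crest setting of Foxd3, 5 of 9 markers were tested. Twist1 was higher (log2 fold change 0.73), and Tfap2a and Msx2 were lower (-0.80 and -2.58). Snai2 and Ets1 were not called (adjusted p = 0.248 and 0.336). Thus 60.0% of the tested markers were called, near the 62.8% over all tested genes. Msx2 had enough counts to be tested only through its 24 h libraries, where it was higher, so the count filter favoured a fall. With at least 10 counts in every library, 4 markers were tested, with 1 higher and 1 lower. The summed level of the 9 markers went from between 29.3 and 31.6 CPM to between 20.2 and 23.3 CPM. Sox10, Sox9, Pax3 and Msx1 had at most 20 counts in a library. Tfap2a made up most of this sum, at 23.1 ± 0.978 CPM at 24 h and 13.3 ± 1.65 CPM at 48 h (SD, n = 3). The other 8 markers summed to between 6.93 and 7.96 CPM at 24 h and between 7.96 and 8.71 CPM at 48 h. The part of these markers in the values of Foxd3 was not tested. For the paraxial mesoderm and trunk setting of Tcf15 and Nr6a1, 3 of 12 markers were tested. Of these, 33.3% were called, against 62.8% over all tested genes. The called marker, Cdx4, had enough counts to be tested only through its 48 h libraries, where it was higher, so the count filter favoured a rise. Cdx4 was called higher, on a mean of 0.760 CPM at 48 h (log2 fold change 1.01, adjusted p = 0.0291), and lost its call in DESeq2 (adjusted p = 0.101) and without 24 h replicate 1 or 2 or 48 h replicate 1 or 3, each left out alone (adjusted p from 0.0559 to 0.131). The other 9, T, Tbx6, Msgn1, Mesp1 and Meox1 among them, had at most 11 counts in a library, and the summed level was between 3.82 and 4.71 CPM in every library.

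Markers of extraembryonic endoderm and trophoblast, 13 in all, summed to between 28.9 and 29.4 CPM at 24 h and between 19.7 and 22.2 CPM at 48 h. Of 5 tested, Gata4, Hnf4a and Eomes were lower and Dab2 and Gata3 were not called (adjusted p = 0.388 and 0.155). Thus 60.0% of the tested markers were called, near the 62.8% over all tested genes. Gata6, Sox17, Foxa2, Sox7, Afp, Elf5 and Hand1 had at most 12 counts in a library, and Ttr had 0 counts in every library. Eomes made up most of the sum, at 16.1 ± 1.35 CPM at 24 h and 13.2 ± 1.05 CPM at 48 h (SD, n = 3), and the other 12 markers summed to between 11.8 and 13.7 CPM and then to between 7.22 and 7.82 CPM. Otx2 is also expressed in visceral endoderm, and the part of these markers in its values was not tested.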

How the data were processed

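Messenger RNA libraries of 6 samples were compared in 2 groups of 3, taken from the sample titles. The deposited values are RSEM expected counts (estimated counts) per gene, not scaled for depth or length. The submitters' processing notes list cutadapt 1.9.1, STAR 2.5.2, RSEM 1.3.0 and GRCm38. The annotation, strand use and filters are not given in the sources used here. All 6 columns were used. Symbols came from GENCODE M21 (51633 of 51912 identifiers matched).

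Counts were rounded, filtered with filterByExpr (minimum count 10), scaled by TMM and fitted with edgeR 4.0.16 (glmQLFit and glmQLFTest, R 4.3.3), the model holding the group alone. Benjamini-Hochberg adjustment ran over all 14889 tested genes, and an adjusted p under 0.05 is a call. The fit was tested on simulated data. CPM use the scaled totals of tested genes, and log2 CPM a prior count of 2. The 6 genes and 9 lists (122 genes) were chosen with earlier results of these data known. Named genes are the 6, list genes (those with the largest changes, and the partners, of which 1 is not reported here), the 3 most similar genes for each, and annotated overlapping and neighbouring genes. Alternatives were RLE scaling, library size only, 2 other filters, DESeq2 1.42.0, limma voom (limma 3.58.1), the replicate number as a block and leaving out each library. Marker sums without the gene of highest level were added after seeing the data. The depth of the libraries limits genes with few counts.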

Additional observations from a re-analysis of the deposited data

How the results depend on the processing

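Each of the 6 genes stayed higher at 48 h in all 13 alternatives. Among the alternatives that keep all 6 libraries, library size as the only scaling gave the lowest value for each, such as Zfp281 to 0.49 and Vrtn to 5.26. Leaving out 1 library gave 1.69 to 1.78 for Otx2, 1.05 to 1.11 for Foxd3, 0.65 to 0.76 for Tcf15, 1.09 to 1.13 for Nr6a1, 5.12 to 5.49 for Vrtn and 0.53 to 0.56 for Zfp281. Over all tested genes, from 7986 (DESeq2) to 9792 (every gene with a count) were called, against 9345. Called relatives numbered 1 with at least 10 counts in every library and 4 with every gene with a count, since these filters change how many are tested. In the paraxial and trunk list the 1 call became 0 with at least 10 counts in every library (edgeR, 0 at an unadjusted p under 0.05), 0 with DESeq2 (0 unadjusted), and 0 to 1 in fits leaving out 1 library (where 0, then 0 or 1 unadjusted), while limma voom gave 1. Ranking similar genes by Pearson correlation kept 2 of 18; the cause was not tested. Upf1 became -0.002 (adjusted p = 0.939) with library size only, from 0.06 (adjusted p = 0.0259). Of the other values of list genes, 1113 kept their direction and call or were not called in either fit, 24 lost the call and 1 gained it.

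With the replicate block 9235 genes were called, 9138 of them shared, and no call of a list gene changed. Deviations of libraries of the same number gave correlations over genes of -0.05, -0.04 and -0.01, and the numbers were not taken as pairs. Genes with few counts limit the reading of the later-tissue markers.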

Other observations

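The genes next to the 6 factors on their chromosomes moved in both directions. The protein-coding neighbours of Zfp281 are Kif14 and, 213 kb away, Nr5a2, a nuclear receptor of the naive state. Nr5a2 was at 85.5 ± 2.35 CPM at 24 h and fell by 1.64 on the log2 scale, to 27.4 ± 0.570 CPM (SD, n = 3, edgeR adjusted p = 1.85e-15), while Zfp281 was higher at 48 h. Abcd4, a transporter gene 23.6 kb from Vrtn, rose by 0.99 on the log2 scale (edgeR adjusted p = 4.57e-10). Its level was 17.02 ± 0.489 CPM at 24 h and 33.8 ± 2.48 CPM at 48 h. Syndig1l, 25.8 kb on the other side of Vrtn, had at most 3 counts in a library. Tmem260 and Exoc5, 133 kb and 330 kb from Otx2, rose by 0.65 and 0.39. Nr5a1, a nuclear receptor gene 8.83 kb from Nr6a1, had 0 counts in every library, and Olfml2a, 4.29 kb on the other side, had at most 7. Csnk2a1, 77.7 kb from Tcf15, was at 357.2 ± 3.19 CPM at 24 h and 356.6 ± 4.09 CPM at 48 h and was not called (adjusted p = 0.921), and Srxn1, on the other side, rose by 0.20. Alg6, 57.0 kb from Foxd3, fell by 0.41 on the log2 scale.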
